A study of Mus musculus with 23 samples.

Results

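The MLT subfamilies are the older members of the mammalian apparent LTR retrotransposons (MaLRs), and their RNA reads were examined in mouse spinal cord. The members were all rows of the repeat table whose family was ERVL-MaLR and whose name began with neither ORR1 nor MT, which are the rodent MaLR lineages. This gave 57 of the 106 ERVL-MaLR rows and of the 1135 repeat subfamilies in the table. All 57 carried MLT names, and 0 rows were named MST or THE1. The members comprised 29 long terminal repeats (LTRs) and 28 internal parts, the stretch between the LTRs, whose names end in -int.

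The samples were whole spinal cord lysates from PS19 mice, heterozygous carriers of a mutant human tau transgene driven by the mouse prion protein promoter, and from littermates without the transgene. There were 7 PS19 and 6 control samples at 9 months of age, and 5 PS19 and 5 control samples at 4 months. RNA was selected for poly(A) tails and sequenced as paired, strand-specific reads. The values, here called the signal, are reads per subfamily, summed over its copies and scaled by each sample's size factor, and they are not corrected for length or copy number. The table holds repeats alone, so neither the tau transgene nor markers of spinal cord cells could be checked.

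MaLRs are nonautonomous retrotransposons related to the ERVL endogenous retroviruses, and their internal parts do not encode the viral proteins. MLT elements spread in early mammals, so their copies are old, diverged from one another and shared between mouse and human, and most survive as solitary LTRs or fragments. LTRs hold the promoter and polyadenylation signals of the element, and old copies lie in introns, untranslated regions and between genes, so an RNA read from such a copy may belong to a transcript of the element or to a longer RNA that includes it. Which of these applied was not tested.

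Each 9-month sample had 338090 to 590194 reads on repeats and each 4-month sample 529522 to 2168280, of which 7984 to 39709 fell on the members. The 4-month samples lay in 2 sets that followed the sample numbers in the labels, each set with both genotypes. Replicates 1 to 3 of each genotype had a summed member signal of 25048 to 45047, and replicates 4 and 5 had 6892 to 12297. What the sample numbers stand for is not given, so results that use the 4-month samples are also given with replicates 4 and 5 alone at that age. At 9 months, PS19 replicates 1 to 5 had lower sample numbers than every control. A separate source animal for each sample is not stated outright, so p-values measure the spread between these samples.

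The members' summed signal at 9 months was 11598 ± 785 (SD, n = 7) in PS19 and 11118 ± 551 (SD, n = 6) in control. It ran from 10478 through a median of 11837 to 12408 in PS19 and from 10629 through 11000 to 12121 in control, so the genotypes overlapped. At 4 months, with 5 samples in each genotype, the sums were 20896 ± 11036 (SD) for PS19 and 24887 ± 16171 (SD) for control. The 2 sets at 4 months had sums of 32083 ± 7600 (SD, n = 6) and 9104 ± 2372 (SD, n = 4). In bulk samples, fewer cells of a type and less RNA per cell cannot be told apart.

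As a share of all repeat signal, which does not depend on the size factors, the members took 2.60% ± 0.191 in PS19 and 2.76% ± 0.083 in control at 9 months. At 4 months they took 1.64% ± 0.131 in PS19 and 1.67% ± 0.171 in control. The 13 samples at 9 months lay between 2.30% and 2.87% and the 10 at 4 months between 1.46% and 1.84%, so the ages did not overlap while the genotypes did. A single LTR subfamily, MLT1A1, accounted for most of the gap. MLT1A1 held 35.3% ± 2.90 (SD, n = 13) of the member signal at 9 months and 6.91% ± 1.16 (SD, n = 10) at 4 months. With MLT1A1 left out, the members' share was 1.74% ± 0.066 at 9 months and 1.54% ± 0.118 at 4 months, and the ranges of 1.60% to 1.87% and 1.38% to 1.69% overlapped.

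**Figure D1:**
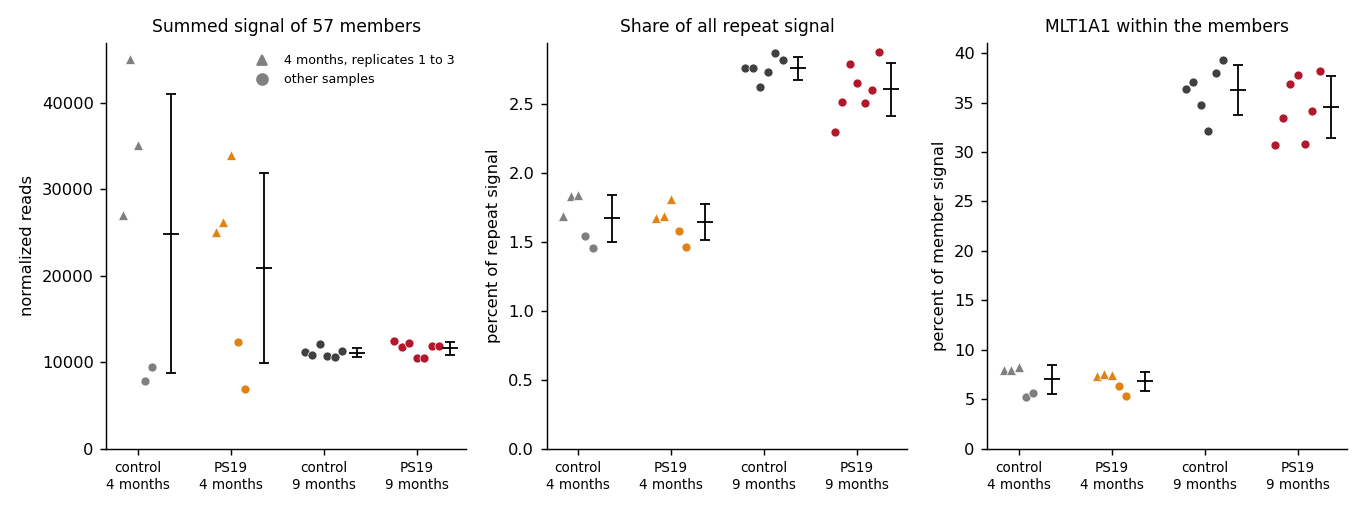
Each point is a sample, with triangles for replicates 1 to 3 at 4 months, and the bar beside each group is the mean ± SD. The panels plot the summed signal of the 57 members in normalized reads, their percent of all repeat signal, and the percent of member signal on MLT1A1, which lies between 30.7% and 39.3% at 9 months and between 5.27% and 8.26% at 4 months.

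The younger MaLR lineages took shares that moved the other way between the ages. ORR1 held 2.84% ± 0.157 of the repeat signal at 9 months and 4.28% ± 0.151 at 4 months, and MT held 3.11% ± 0.175 and 4.64% ± 0.187. The related ERVL family held 2.83% ± 0.126 and 2.55% ± 0.038. These are descriptions of the same 23 samples, with all values as SD over 13 and 10 samples. Whether the ages were scaled together is not given, and age cannot be told apart from any other difference between the 9-month and 4-month libraries.

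Internal parts made up 8.92% ± 0.763 of the member signal at 9 months and 4.65% ± 0.389 at 4 months, and at 9 months 2 of the 28, MLT-int and MLT1H-int, held most of it. The row named MLT-int, which carries no number or letter, held 5.07% of the member signal at 9 months and 0.758% at 4 months. At the other end, 7 internal parts had no read in any of the 13 samples at 9 months, namely those of MLT1H2, MLT1H1, MLT1E1A, MLT1E3, MLT1L, MLT1E1 and MLT1E. The number of internal parts at 0 was 8 to 16 per sample at 9 months, 6 to 7 in replicates 4 and 5 at 4 months and 0 to 1 in replicates 1 to 3, while each LTR had reads in every sample.

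MLT1H2-int had 128 reads among 13461087 repeat reads at 4 months and 0 among 5639045 at 9 months. A count of 0 allows up to 3 reads over the 9-month group, or 0.532 reads per 1000000 repeat reads (RPM), and the pooled 4-month level of 9.51 RPM was at least 17.9-fold higher. MLT1H1-int had 83 reads at 4 months, at least 11.6-fold higher by the same floor, and its pooled level was 6.17 RPM. Most of these reads were in replicates 1 to 3, which held 120 of the 128 and 78 of the 83. In replicates 4 and 5 the levels were 3.41 and 2.13 RPM, from 8 and 5 reads. Control replicate 4 held 6 of these 8 reads of MLT1H2-int, and PS19 replicate 4 held 4 of the 5 of MLT1H1-int. Of the others with no read at 9 months, MLT1E1A-int, MLT1E3-int, MLT1L-int and MLT1E1-int were at least 4.19-, 4.05-, 3.35- and 3.07-fold higher by that floor, pooled over all 4-month samples. In replicates 4 and 5 alone, MLT1E3-int was at 1.28 RPM, from 3 reads. There MLT1E1A-int had 0 reads, and MLT1L-int and MLT1E1-int were at 0.427 RPM, from 1 read each, all below the floor. MLT1E-int, at a pooled 0.371 RPM at 4 months, lay below the floor. These floors and ratios cover counting error only. The internal parts were picked for their 0 at 9 months, so the ratios are a description.

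**Figure D2:**
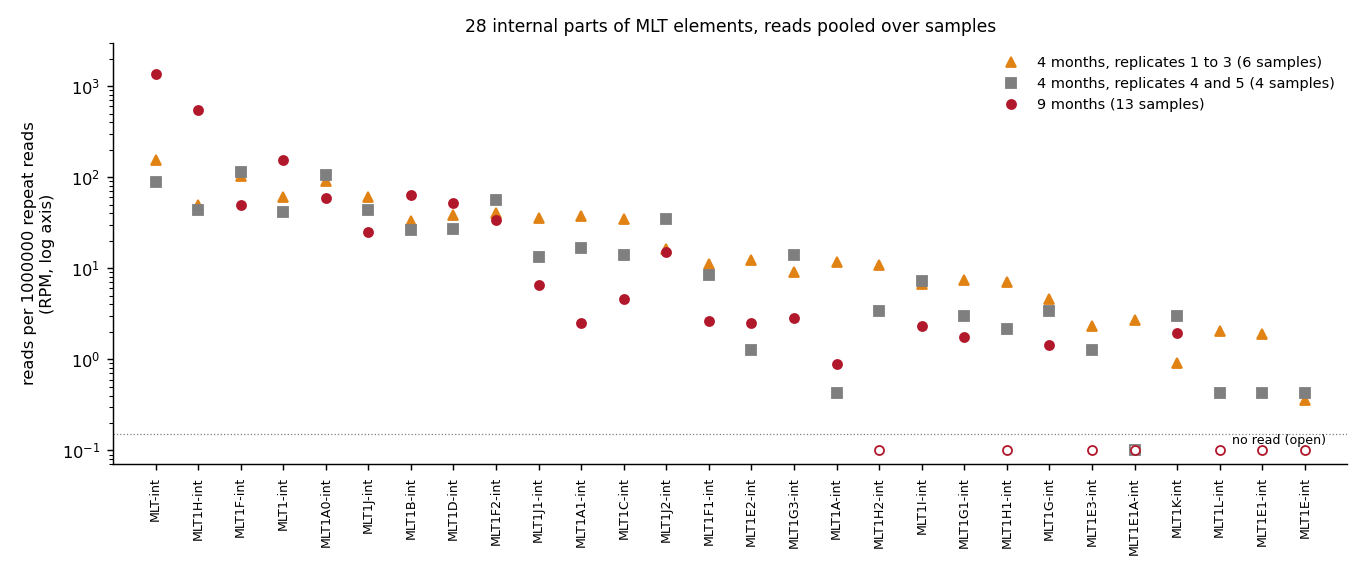
RPM, reads per 1000000 repeat reads, on a log axis, for the 28 internal parts, pooled over the 13 samples at 9 months (circles), replicates 1 to 3 (triangles) and replicates 4 and 5 (squares) at 4 months; open symbols under the dotted line mark 0 reads. MLT-int stands at 1344 RPM at 9 months against 155 and 89.2 in the 4-month sets, and MLT1H-int at 547 against 49.6 and 43.5.

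The genotypes were compared with limma on log2(signal + 1), with Benjamini-Hochberg adjustment over the 920 subfamilies whose mean signal over all samples was at least 10. This threshold kept 42 members, made up of all 29 LTRs and 13 internal parts, and the other 15 members, all internal parts, were not tested. The 15 had mean signals of at most 1.25 at 9 months and at most 14.5 at 4 months. Fold changes on this scale understate changes of low members. Of the tested internal parts, MLT1A1-int, MLT1C-int, MLT1J1-int and MLT1J2-int, had mean signals under 10 at 9 months and so entered through their 4-month values.

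At 9 months, 0 of the 42 tested members passed an adjusted p of 0.05 between PS19 and control in limma. The background was 3.37% of the 920 subfamilies, with 3.04% higher and 0.326% lower. An unadjusted p under 0.05 was reached by 7 members, 6 higher and 1 lower in PS19, against 17.8% of all tested subfamilies. edgeR and DESeq2 on the recovered reads each called 0 members, with 7 at an unadjusted p under 0.05. Their shares over all tested subfamilies are not given, so these counts have no background beside them. The median log2 fold change of the members was 0.15, beside 0.19 over all tested subfamilies, and 31 of 42 members were above 0, or 73.8%, beside 75%. With TMM scaling within the repeats both medians moved to near 0, to -0.02 and 0.01, and 18 members were above 0. The median was 0.41 for the 13 internal parts and 0.09 for the 29 LTRs, and with TMM scaling these were 0.23 and -0.09. Without the 4 internal parts that entered through their 4-month values, the other 9 had a median of 0.25, or 0.09 with TMM scaling. Those 4 rested on few reads at 9 months, from 11 in PS19 and 3 in control for MLT1A1-int to 61 and 25 for MLT1J2-int. No member had all PS19 samples above all controls or all below, against 0.978% and 0.326% of the tested subfamilies. With PS19 replicates 6 and 7 alone, 0 members were called, with no background share given. The median was then 0.11, beside 0.12 over all tested subfamilies.

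Among the internal parts, MLT1H-int had the smallest p. Its signal ran from 209.6 through a median of 275.2 to 309.2 in the 7 PS19 samples and from 146.5 through 198.3 to 231.4 in the 6 controls. Every PS19 sample was above the control median, but the lower PS19 samples lay among the higher controls. The log2 fold change was 0.41 (SE 0.14, limma adjusted p = 0.112).

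The LTRs with the smallest p on the higher side were MLT1L, MLT1E, MLT1J1 and MLT1F2. MLT1L ran from 67.3 through 98.2 to 126.4 in PS19 and from 41.7 through 61.7 to 99.7 in control, a log2 fold change of 0.53 (SE 0.20, limma adjusted p = 0.163). MLT1E ran from 30.7 through 40.8 to 50.5 against 17.1 through 22.2 to 42.1, a log2 fold change of 0.63 (SE 0.24, limma adjusted p = 0.167). All 7 PS19 samples were above the control median for both, and the groups overlapped through the highest controls. MLT1J1 ran from 23.9 through 31.8 to 59.4 in PS19 and from 19.1 through 22.5 to 29.8 in control, with a log2 fold change of 0.64 (SE 0.25, limma adjusted p = 0.174). MLT1F2 ran from 99.1 through 136.6 to 176.5 and from 87.6 through 95.7 to 146.9, with 0.41 (SE 0.16, limma adjusted p = 0.190). Again all 7 PS19 samples lay above the control median, within overlapping ranges. Without control replicate 3, which was the highest control for MLT1L and MLT1F2, limma called these 2 members at 0.66 (adjusted p = 0.0441) and 0.51 (adjusted p = 0.0458), where 7.83% of all tested subfamilies were called higher. With samples weighted by their fit, 4 members were called higher, MLT1H-int, MLT1L, MLT1F2 and MLT1F2-int, with limma adjusted p from 0.0273 to 0.0491, against 9.89% of all tested subfamilies called.

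On the lower side the smallest p belonged to MLT1G3, an LTR. It ran from 122.5 through 149.2 to 172.0 in PS19 and from 153.6 through 201.1 to 214.0 in control, a log2 fold change of -0.37 (SE 0.13, limma adjusted p = 0.126). No PS19 sample reached the control median, and the ranges met between 153.6 and 172.0. Under quantile scaling within the repeats MLT1G3 was called, at -0.55 (limma adjusted p = 0.0400), where 1.09% of all tested subfamilies were called lower. MLT1M had a log2 fold change of -0.23 (SE 0.16, adjusted p = 0.405), with 0 of 7 PS19 samples above the control median. MLT1J-int, MLT1F and MLT1I had -0.30, -0.19 and -0.15, each with an SE as large as or near its value, namely 0.37, 0.20 and 0.16.

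The members with the most signal differed little between genotypes at 9 months. MLT1A1 was 4008 ± 442 (SD, n = 7) in PS19 and 4031 ± 329 (SD, n = 6) in control, a log2 fold change of -0.01 (SE 0.09). MLT1B was 961 ± 58.6 and 910 ± 107, and MLT1C was 607 ± 71.2 and 576 ± 34.4, with log2 fold changes of 0.08 and 0.07. MLT1D and MLT1A0 were at -0.04 (SE 0.10) and 0.18 (SE 0.12). MLT-int was 568.5 ± 69.7 in PS19 and 579 ± 74.6 in control. All of these lay inside the spread between samples. MLT1J, below MLT1A1 alone in mean signal at 9 months, was 1020 ± 70.5 in PS19 and 907 ± 113 in control. Its log2 fold change was 0.18 (SE 0.10, limma adjusted p = 0.339). For MLT1J, 6 of 7 PS19 samples lay above the control median and 3 above all controls. The largest fold change, 1.20 for MLT1C-int (SE 0.55, limma adjusted p = 0.257), rested on 22 reads in all PS19 samples and 4 in all controls.

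**Figure D3:**
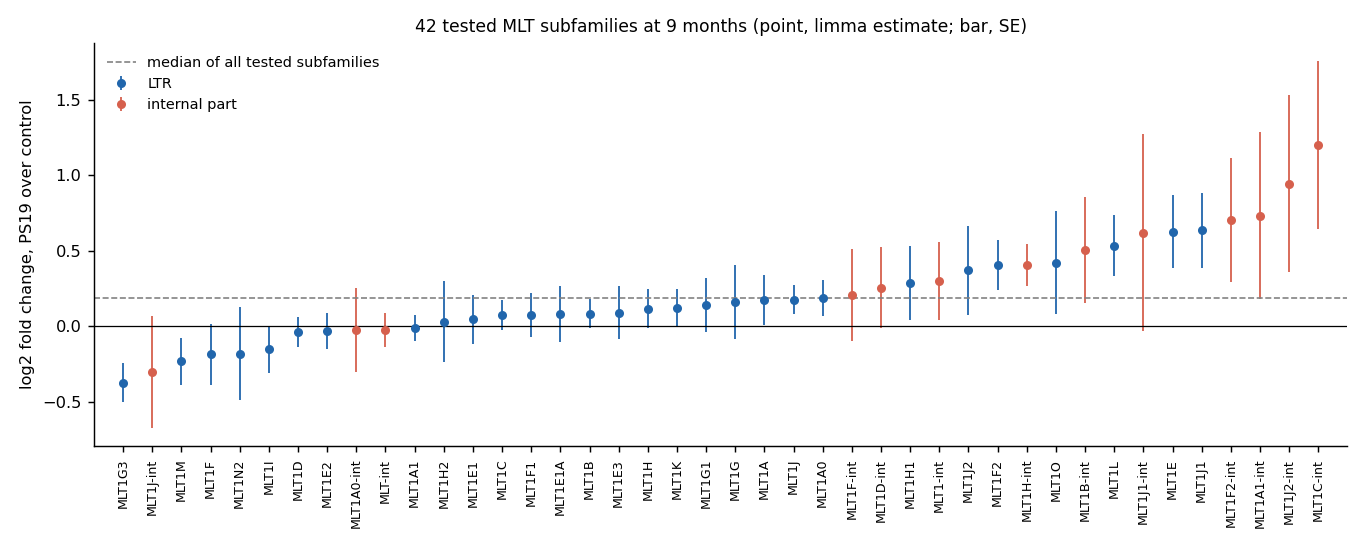
Log2 fold change of PS19 over control at 9 months for the 42 tested members, as the limma estimate with its SE, for LTRs (blue) and internal parts (red). The dashed line is the median of all 920 tested subfamilies at 0.19, most LTRs lie close to it or to 0, and the internal parts at the right end have the widest bars.

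At 4 months, 0 of 42 members were called between PS19 and control in limma, and 0 had an unadjusted p under 0.05. The limma background was 0% for both. edgeR and DESeq2 also called 0, with 0 at an unadjusted p under 0.05, and their background shares are not given. The median log2 fold change was -0.11 for the members and -0.08 for all tested subfamilies. It turned with the set of samples, being -0.32 within replicates 1 to 3 and 0.16 within replicates 4 and 5, beside -0.27 and 0.22 over all tested subfamilies. The 4-month samples alone could therefore not give a direction for the members. The fits counted above had no term for the sets of samples, so the difference between sets counted as spread within each genotype. Their 0 calls do not show that the genotypes were alike.

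The 3 members with the smallest p at 4 months were MLT1C-int, MLT1E1A and MLT1J2, each with a limma adjusted p of 0.9999. MLT1C-int had signals of 58.9, 59.4, 57.7, 21.6 and 7.31 in PS19 replicates 1 to 5 and 57.4, 86.2, 57.8, 0 and 5.90 in controls. The genotypes overlapped, and the log2 fold change of 0.85 (SE 1.11) was -0.17 within replicates 1 to 3 and 2.38 within replicates 4 and 5. MLT1J2 was at 230.6, 321.3, 391.3, 132.8 and 41.4 in PS19 and 308.0, 597.8, 409.8, 100.6 and 126.3 in control, with a log2 fold change of -0.51 (SE 0.70). MLT1E1A, an LTR, had -0.42 (SE 0.56).

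The 2 sets of 4-month samples differed far more than the genotypes. All 42 tested members had a higher mean in replicates 1 to 3, as did 914 of all 920 tested subfamilies. The difference was between 0.52 and 3.40 on the log2 scale, with a median of 2.02, beside 1.93 over all tested subfamilies. For 40 of the 42 members every sample of replicates 1 to 3 was above every sample of replicates 4 and 5, against a background of 91.6%. MLT1J2-int and MLT1G3 differed least, by 0.52 and 0.74, and MLT1C-int and MLT1E1 most, by 3.40 and 3.01.

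The difference between the genotype effects at 9 and 4 months was tested as an interaction, and 0 of 42 members were called, with 0 at an unadjusted p under 0.05 in limma. The background was 0% and 0.87%. When the model separated the 2 sets at 4 months, 0 members were called, and MLT1J1, MLT1E, MLT1L and MLT1J2 had an unadjusted p under 0.05, 4 of 42 against 8.26% of all tested subfamilies. edgeR and DESeq2 called 0 members, with 0 at an unadjusted p under 0.05, and their background shares are not given. The estimates were above 0 for 34 of 42 members, with a median of 0.28 beside 0.27 over all tested subfamilies, and with TMM scaling both medians were near 0, at 0.03 and 0.02. With replicates 4 and 5 alone at 4 months the medians were -0.02 and -0.03. With samples weighted by their fit to the model, 25 members were called higher, against 45.4% of all tested subfamilies called in either direction.

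The ages were compared within each genotype, in a fit of all 23 samples. With the authors' size factors, 31 of 42 members fell and 4 rose from 4 to 9 months in control, 35 called against 85.4% of all tested subfamilies and, by direction, 79.3% and 6.09%, and 30 fell and 3 rose in PS19, against 77% and 6.09%. The median log2 fold change of the members was -1.999 in control and -1.69 in PS19, beside -2.14 and -1.83 over all tested subfamilies. All 30 that fell in PS19 also fell in control, where MLT1B fell as well, and the 3 that rose in both were MLT1H-int, MLT-int and MLT1A1. MLT1M rose by 1.02 in control alone (limma adjusted p = 0.0477), with 0.77 (adjusted p = 0.125) in PS19, and the difference between the genotypes, -0.26 (SE 0.67), did not pass. The control and PS19 comparisons share no samples, but they come from the same fit, with a common estimate of the spread. Both set 9-month against 4-month libraries, so any other difference between these libraries enters both. The share of all tested subfamilies that fell in both is not given. Among the 38 tested members with a mean of at least 10 at each age, 27 fell and 4 rose in control, against 76.5% and 6.23% of all subfamilies with such means. With no filter, 44 of all 57 members fell and 3 rose in each genotype, against 78.3% and 4.85% of all 1135 subfamilies in control and 75.4% and 5.2% in PS19. The members' shares were thus near the background.

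This direction depended on the scale. TMM scaling within the repeats moved the median of all tested subfamilies by nearly the whole difference, to -0.19 in control and -0.13 in PS19. The members then had 17 called higher and 12 called lower in control, against backgrounds of 31.2% and 33.8%, and 16 and 13 in PS19, against 31% each. Of the 31 that fell in control, 12 were still called lower and 6 were called higher. With replicates 4 and 5 alone at 4 months, 10 rose and 20 fell in control, against 16.3% and 50.2%, and 9 rose and 19 fell in PS19, against 14% and 50.2%. With both changes together, 17 rose and 7 fell in control, against 28.6% and 17.3%, and 17 rose and 3 fell in PS19, against 28.3% and 13.7%. Over these settings and quantile scaling, in both genotypes, 3 members were called higher in all 10 fits, MLT1A1, MLT-int and MLT1H-int, and 1 was called lower in all 10, MLT1A. Of all 920 tested subfamilies, 5.43% were called higher and 7.28% lower in all 10 fits. With quantile scaling alone, 13 members rose and 18 fell in control, against 25.3% and 42.5%, and 12 rose and 19 fell in PS19, against 24.5% and 41.4%. The counts of members under these settings keep the 4 internal parts tested through their 4-month signal, which favours lower calls.

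**Figure D4:**
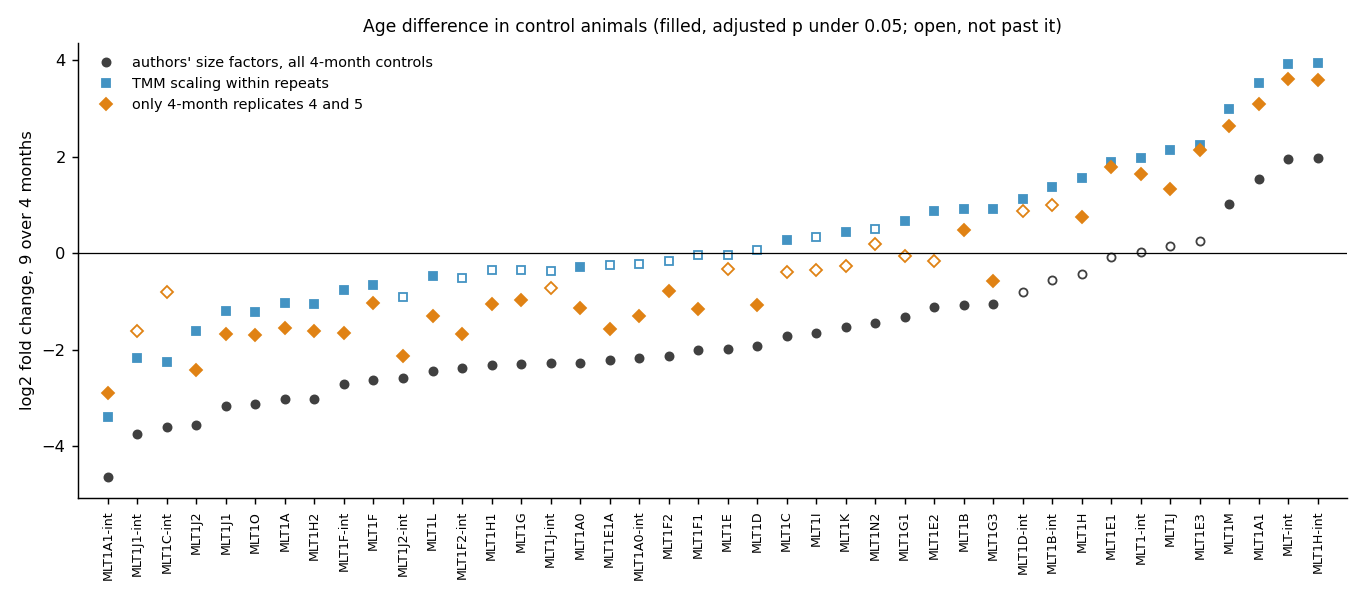
Log2 fold change from 4 to 9 months in control animals for the 42 tested members, with the authors' size factors (circles), with TMM scaling within the repeats (squares) and with 4-month replicates 4 and 5 alone (diamonds). The 3 series differ mainly in height, and MLT1A1, MLT-int and MLT1H-int are filled and above 0 in each.

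Of the members called higher in all 10 fits, MLT1H-int had signals of 87.8, 138.4, 94.2, 18.2 and 12.98 in the 4-month controls and 61.3, 62.2, 101.6, 37.4 and 31.7 in the 4-month PS19 samples. All 13 samples at 9 months, from 146.5 to 309.2, lay above all 10 at 4 months. The log2 fold change was 1.97 (SE 0.45, limma adjusted p = 0.000265) in control and 2.24 (SE 0.44, adjusted p = 6.97e-05) in PS19, and 3.93 and 3.94 with TMM scaling. MLT-int had 244.1, 398.2, 333.8, 36.4 and 59.0 in the 4-month controls and 224.2, 206.2, 288.6, 90.8 and 33.3 in the PS19 samples. Its 9-month samples, from 463.7 to 653.6, were again all higher. The log2 fold change was 1.95 (SE 0.51, adjusted p = 0.000902) in control and 2.08 (SE 0.49, adjusted p = 0.000397) in PS19. These 2 were the only tested members with every 9-month sample above every 4-month sample, against 3.26% of all tested subfamilies, and 12 members had every 9-month sample below, against 27.1%. Against 4-month replicates 4 and 5 alone, 7 members lay wholly above, against 10.9%, and these were MLT1A1, MLT1M, MLT1J, MLT1E1, MLT1E3, MLT1H-int and MLT-int.

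MLT1A1, an LTR, had 2150, 3606, 2899, 411.2 and 529.9 in the 4-month controls and 1833, 1987, 2528, 778.5 and 370.6 in the 4-month PS19 samples. At 9 months it ran from 3244 through 4033 to 4531, so that the highest 4-month control alone overlapped. The log2 fold change was 1.55 (SE 0.47, limma adjusted p = 0.00356) in control and 1.71 (SE 0.46, adjusted p = 0.00128) in PS19, and 3.54 and 3.44 with TMM scaling. Its internal part, MLT1A1-int, was listed at 59.0, 113.4, 61.0, 6.71 and 11.8 in the 4-month controls and reached at most 3.39 at 9 months. It had 14 reads in all 9-month samples and passed the threshold on the mean through its 4-month signal, so its log2 fold changes are a description. They were -4.64 in control and -3.75 in PS19, -3.39 and -2.41 with TMM scaling, and -2.34 and -1.55 with TMM scaling and 4-month replicates 4 and 5 alone.

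The LTRs closest in name to MLT1A1 had lower values at 9 months. MLT1A had 1426, 2720, 1963, 317.3 and 410.7 in the 4-month controls and ran from 98.8 through 123.9 to 200.3 at 9 months, below all 4-month samples. It fell by 3.01 (SE 0.48, limma adjusted p = 4.38e-06) in control and by 2.71 (SE 0.46, adjusted p = 2e-05) in PS19, and by 1.03 and 0.98 with TMM scaling. MLT1A0 fell by 2.27 (SE 0.39) in control and by 1.97 (SE 0.38) in PS19, and all of its 9-month samples, at 446.9 to 775.5, were below all 4-month samples, the lowest of which was 932.2. With TMM scaling the values of MLT1A0 were far smaller, -0.28 (limma adjusted p = 0.0014) and -0.24 (adjusted p = 0.00437).

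Ratios between members of one sample do not depend on its size factor. The pairs described here were chosen after their values were seen. The signal of MLT1A1 was 31.2 ± 6.50 times that of MLT1A at 9 months (SD, n = 13, range 19.0 to 40.8) and 1.36 ± 0.092 times at 4 months (SD, n = 10, range 1.24 to 1.51). It was 7.14 ± 1.16 times that of MLT1A0 at 9 months and 0.537 ± 0.110 times at 4 months. The 4-month sets were alike in the first ratio, 1.38 ± 0.1002 in replicates 1 to 3 and 1.32 ± 0.071 in replicates 4 and 5, though their summed signals differed. They did not overlap in MLT1A1 over MLT1A0, 0.618 ± 0.037 and 0.414 ± 0.030, and they were at 3.32 ± 0.228 and 4.92 ± 0.801 in MLT1J over MLT1J1. Genotypes overlapped, at 29.4 ± 6.45 in PS19 and 33.2 ± 6.48 in control for MLT1A1 over MLT1A at 9 months.

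The MLT1J and MLT1H names split in the same way between the ages. MLT1J, an LTR, did not pass between the ages with the authors' size factors, at 0.15 (SE 0.39, limma adjusted p = 0.713) in control and 0.47 (SE 0.38, adjusted p = 0.238) in PS19. It was called higher in the other 8 of the 10 fits, at 2.14 and 2.20 with TMM scaling. MLT1J2 fell by 3.55 (SE 0.50, adjusted p = 1.23e-06) in control and by 2.67 (SE 0.49, adjusted p = 3.83e-05) in PS19, and MLT1J1 fell by 3.16 (SE 0.51) and 2.31 (SE 0.49). With TMM scaling MLT1J2 was at -1.60 and -0.97 and MLT1J1 at -1.20 and -0.60, and in PS19, with 4-month replicates 4 and 5 alone as well, they were at -0.60 and -0.24 and did not pass. MLT1J over MLT1J1 was 33.9 ± 9.70 at 9 months (range 18.1 to 50.7) and 3.96 ± 0.965 at 4 months (range 2.91 to 6.09). MLT1J over MLT1J2 was 43.2 ± 14.7 and 3.85 ± 1.39, with ranges of 25.6 to 71.5 and 2.75 to 7.65. MLT1H over MLT1H2 was 17.9 ± 7.01 and 2.72 ± 0.375, and MLT1H-int over MLT1H2 was 10.002 ± 4.37 and 0.296 ± 0.127. None of these 6 ratios overlapped between the ages, but the pairs were chosen on these same values, so this is a description. How reads that fit several such subfamilies were shared out is not given, and values of close subfamilies may depend on it, a point that was not tested.

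**Figure D5:**
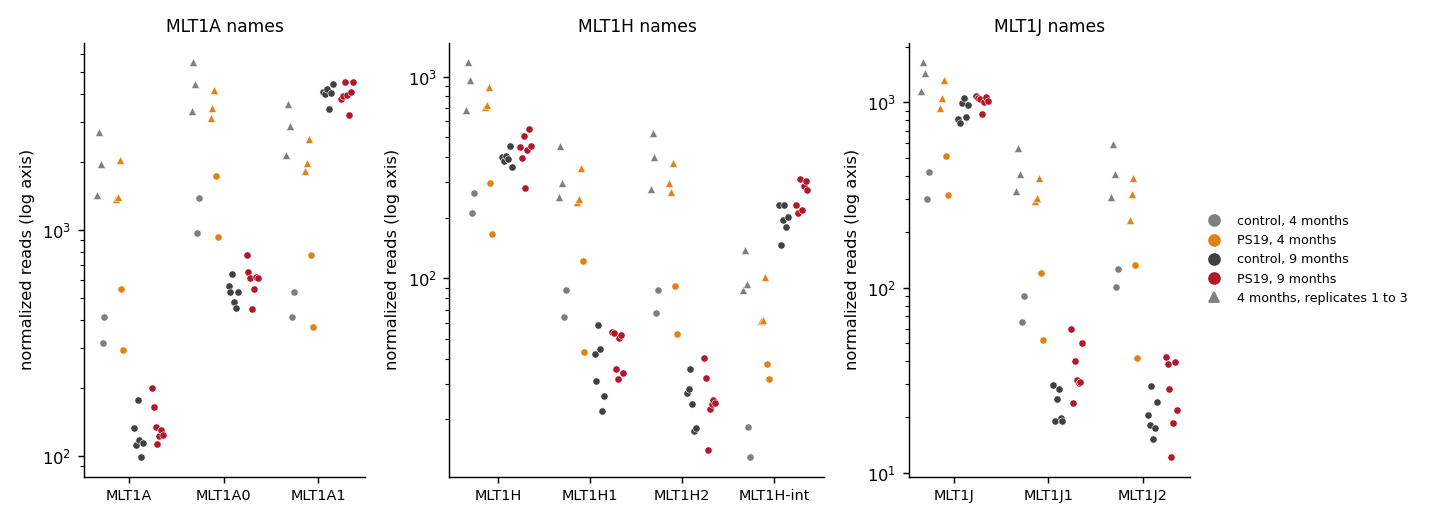
Signal per sample on a log axis for LTRs with MLT1A, MLT1H and MLT1J names and for MLT1H-int, with grey and orange for control and PS19 at 4 months, black and red at 9 months, and triangles for 4-month replicates 1 to 3. MLT1H-int at 9 months lies above all 4-month samples, MLT1A1 above all but the highest, and MLT1J within their range, while MLT1A and MLT1A0 lie below all of them.

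The remaining LTRs with the largest declines were MLT1O and MLT1H2, which fell by 3.12 (SE 0.56) and 3.01 (SE 0.51) in control and by 2.45 (SE 0.54) and 2.73 (SE 0.49) in PS19. With TMM scaling they were at -1.21 and -1.05 in control and -0.77 and -1.03 in PS19. MLT1D, the LTR with 14.1% ± 2.997 (SD, n = 10) of the member signal at 4 months and 6.41% ± 0.620 (SD, n = 13) at 9 months, fell by 1.92 (SE 0.33) in control, but it was at 0.071 with TMM scaling. MLT1C fell by 1.71 (SE 0.44) in control and MLT1B by 1.06 (SE 0.47, limma adjusted p = 0.0367), while with TMM scaling both were above 0, at 0.27 and 0.92.

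Among the other internal parts, MLT1J1-int, MLT1C-int, MLT1F-int, MLT1J2-int, MLT1F2-int, MLT1J-int and MLT1A0-int fell in both genotypes with the authors' size factors, by 3.74 to 2.17 in control. Of these, MLT1J2-int was at 0.083 in control with quantile scaling, MLT1J-int at 0.079 when TMM scaling was joined with replicates 4 and 5 alone, and MLT1F2-int at 0.090 in PS19 with TMM scaling. Of the 10 fits, 3 called MLT1J2-int lower, 3 MLT1F2-int, 5 MLT1J-int and 5 MLT1A0-int. MLT1J1-int, MLT1C-int and MLT1J2-int, like MLT1A1-int, passed the threshold on the mean through their 4-month signal, so their values are a description. MLT1D-int, MLT1B-int and MLT1-int did not pass in either genotype with the authors' size factors, with control values of -0.81 (SE 0.53), -0.56 (SE 0.61) and 0.02 (SE 0.53), and with TMM scaling all 3 were called higher, at 1.12, 1.37 and 1.98. Of the 10 fits, 6 called MLT1D-int higher, 6 MLT1B-int and 8 MLT1-int.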

How the data were processed

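The authors deposited, for each repeat subfamily and sample, a signal that is whole reads over a size factor. Trimmomatic, STAR, DESeq2 and the build mm10 appear in the submitters' processing notes, with no versions. Which annotation and program assigned reads to repeats, and how reads with many positions were handled, is not given in the sources used. Values were whole multiples of one read's worth in 100% of cases (tolerance 0.1% of a read), which gave the reads. Replicates differed by more than sampling noise, with chi-square over degrees of freedom of 3.73 or more. Each was counted as a sample, but this spread does not show that they came from separate animals.

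R 4.3.3 with limma 3.58.1 (trended empirical Bayes) was run on log2(signal + 1), on the samples of one age for genotype and on all 23 for age and interaction. Subfamilies with a mean of at least 10 were tested, and the adjusted threshold was 0.05. Alternatives were pseudocounts of 0.5 and 5, no filter or a filter at 50, TMM and quantile scaling, sample weights, a term for the 4-month sets, edgeR 4.0.16, DESeq2 1.42.0 and leaving out each sample. Restrictions to single sets of samples were partly added after the data were seen. The fit was tested on simulated reads with 200 subfamilies changed.

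Named members were those with the 5 smallest p in each direction at 9 months, the 5 highest means, every tested internal part, the 4 largest age differences in control each way at a mean of at least 50, and the 3 smallest p at 4 months. Others named were chosen after their values were seen. Members and lists were chosen with earlier results of these data known. Sequences of the subfamilies were not used here.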

Additional observations from a re-analysis of the deposited data

Results flagged for a closer look

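Over 128 groups of values of named members, 3 had a sample set apart from the rest of its group. Chance alone gives about 1 in 20, or 6.4 groups, so the 3 were fewer than chance would give. MLT1F was 81.4 in PS19 replicate 1 at 9 months, with the other 6 samples at 44.4 to 54.2. MLT1C was 765 in the same sample, with the others at 556 to 601. MLT1A0-int was 11.4 in control replicate 4 at 9 months, with the others at 26.1 to 31.5. The cause was not tested.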

How the results depend on the processing

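At 9 months, sample weights called 4 members higher (MLT1H-int, MLT1F2, MLT1L and MLT1F2-int), quantile scaling called 1 lower, and leaving out single samples gave 0 to 2 higher. For age in control, higher calls were 17 with TMM, 13 with quantile scaling, 10 with 4-month replicates 4 and 5 alone and 17 with these and TMM, and lower calls were 12, 18, 20 and 7. In PS19 they were 16, 12, 9 and 17 higher and 13, 19, 19 and 3 lower. Leaving out single samples gave 3 to 4 higher and 29 to 33 lower in control, and 3 higher and 28 to 32 lower in PS19. Sample weights called 25 members higher in the interaction. With replicates 4 and 5 alone, the 4-month sums were 9595 in PS19 and 8614 in control, and the control share was 1.498%. Leaving out single samples gave sums of 17628 to 24398 in PS19 and 19847 to 29157 in control at 4 months.

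Age estimates of some named members reversed. In control, TMM gave 0.071 for MLT1D, 0.92 for MLT1B, 0.27 for MLT1C, 1.12 for MLT1D-int and 1.37 for MLT1B-int. Quantile scaling gave 0.33 for MLT1B, 0.083 for MLT1J2-int, 1.10 for MLT1D-int and 1.38 for MLT1B-int. Replicates 4 and 5 alone gave 0.48 for MLT1B, and with TMM 1.33 for MLT1B, 0.45 for MLT1C, 0.079 for MLT1J-int, 1.65 for MLT1D-int and 1.76 for MLT1B-int. Sample weights gave -1.23 for MLT1-int. In PS19, TMM gave 0.85 for MLT1B, 0.29 for MLT1C, 0.93 for MLT1D-int, 0.090 for MLT1F2-int and 1.39 for MLT1B-int. Quantile scaling gave 0.13 for MLT1J2-int, 0.89 for MLT1D-int, 0.10 for MLT1F2-int and 1.35 for MLT1B-int. Replicates 4 and 5 alone with TMM gave 1.17 for MLT1B, 0.56 for MLT1C, 0.94 for MLT1D-int and 1.55 for MLT1B-int. The cause was not tested. Of the other values of named members, 1833 were alike, 133 moved, 58 lost and 34 gained a call. The labels carry no replicate numbers, so no samples were paired. Low internal parts are limited by depth.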
